A study of Mus musculus with 4 samples.

Results

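The interferon response genes examined here were 40 genes that encode interferon receptors, the Stat and Irf factors that carry the signal, the antiviral genes that these factors switch on and the inducible GTPases, including the Gvin1 locus. They were found by symbol in a table of 18436 genes, and all 40 were present. RNA was taken from intestinal crypt cells sorted for high Lgr5-GFP from 2 Lgr5-WT mice and 2 Lgr5-CREPTKO mice, 1 library per mouse. The Lgr5-WT mice carried Lgr5-EGFP-IRES-creERT2, in which the Lgr5 promoter drives GFP and a tamoxifen-inducible Cre, with no floxed CREPT, and the Lgr5-CREPTKO mice carried the same allele with CREPT fl/fl. All mice were on a C57BL/6 background and received tamoxifen intraperitoneally at 1 mg a day for 5 days, and cells were sorted on day 7. The study used mice of both sexes at 6 to 8 weeks of age, and the sex of each of the 4 mice was not given. The Lgr5 reporter is expressed in only some crypts, so the sorted cells stand for the crypts that carry it. CREPT, encoded by Rprd1b, had a level of 17.7 and 18.1 FPKM in Lgr5-WT cells, against 6.65 and 7.36 FPKM in Lgr5-CREPTKO cells.

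Interferons are secreted proteins that bind receptors on the cell surface. Type I interferons signal through Ifnar1 and Ifnar2 and type II interferon through Ifngr1 and Ifngr2, and the receptors activate Stat factors that act with Irf factors on short promoter elements. In the intestinal epithelium the genes under these elements restrict viruses and intracellular bacteria, and the GTPases among them attack the membranes in which such microbes live.

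Levels are in FPKM, a count of fragments divided by transcript length and by the library's total. By the steps of single reads in small genes, 1 read was worth 0.986 to 1.03 times its value in Lgr5-WT mouse 1. This rests on 6 or 7 gene lengths per library, and ratios far from 1 were left out before the median was taken. It could not show a large difference in depth, so equal depth was not established. The absolute depth is unknown. The genotypes were compared by limma on log2(FPKM + 0.5) in the 12621 genes whose 4 values averaged 0.5 FPKM or more, and a gene was called at a Benjamini-Hochberg adjusted p below 0.05. This scale understates the change of low genes. With 2 mice per genotype the smallest two-sided p of an exact permutation test is 0.333. Of the 40 interferon genes, 35 passed the filter. The 5 that did not, Ifit1, Ifit3, Oas2, Rsad2 and Usp18, stayed at or below 0.72 FPKM in every mouse and were not tested.

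Gvin1, Gm8979 and Gm8989 had much lower values in Lgr5-CREPTKO cells. These 3 genes were chosen for their difference in these same mice, so their values are given as a description without a test. Gvin1 encodes a very large interferon-inducible GTPase, and Gm8979 and Gm8989 are annotated as unprocessed pseudogenes of the same family. The family occupies a stretch of chromosome 7 in which 7 copies lie on the minus strand. Gvin1 lies from 106156556 to 106215326 in GENCODE M21 on GRCm38, has 4 exons and holds its whole coding sequence of 7281 bases in the largest of them. Gm4070, a second protein-coding copy from 105895139 to 105953967, was identical to the Gvin1 coding sequence at 7278 of 7281 bases. Gm8979, from 106076751 to 106084046, was 96.4% identical to it over the aligned bases, and Gm8989, from 106323414 to 106330688, was 96.3% identical. Both have 1 exon.

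A stretch of the Gvin1 coding sequence, bases 1772 to 1831 of it, shows how little separates the copies. It is the first window of 60 bases in which Gvin1, Gm8979, Gm8989 and Gm4070 all differ from each other. It lies in the large coding exon of Gvin1 at chr7:106163430-106163489, and in the other copies at chr7:106082219-106082278, chr7:106328858-106328917 and chr7:105902013-105902072 in the order below, all on the minus strand of GRCm38. Sequences are from GENCODE M21 transcripts, and capitals mark bases that differ from Gvin1.
Gvin1: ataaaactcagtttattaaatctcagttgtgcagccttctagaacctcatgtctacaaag
Gm8979: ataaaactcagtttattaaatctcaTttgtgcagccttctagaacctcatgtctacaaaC
Gm8989: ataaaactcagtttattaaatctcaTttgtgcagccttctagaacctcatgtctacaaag
Gm4070: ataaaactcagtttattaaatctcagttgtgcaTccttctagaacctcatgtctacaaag
Counted from 1 at the 5′ end of the window, Gm8979 carries G26T and G60C, Gm8989 carries G26T and Gm4070 carries G34T. Of all 50-base words in the Gvin1 transcript of GENCODE, 98.3% also occurred in Gm4070 and 22.1% in Gm8979. Of those in Gm8979, 75.1% also occurred in Gm8989. With 100-base words these shares were 96.6%, 10.1% and 61.5%, and the read length was not given. A read that matches several copies must be shared out among them by the quantification, so the value of a single copy is uncertain and sums over copies are given beside it. FPKM also divides by the length of each copy in the authors' reference, which the methods place at NCBI and not at GENCODE. The RefSeq span of Gm8979, 3418 bases, is shorter than its single GENCODE exon of 7296 bases. That of Gm8989 is 2133 bases, against 7275 bases. The windows shown for these copies lie outside their RefSeq spans. The sequences and shares in the authors' reference may thus differ from those given here.

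Gm8979 had the highest level of the 3 genes, at 577 and 522 FPKM in the Lgr5-WT mice and 101 FPKM in each Lgr5-CREPTKO mouse. Gm8989 was at 155 and 185 FPKM in the Lgr5-WT mice, against 34.3 and 35.2 FPKM in the Lgr5-CREPTKO mice. Gvin1 was at 231 and 194 FPKM against 72.1 and 64.5 FPKM. In each of the 3 genes every Lgr5-CREPTKO mouse was below every Lgr5-WT mouse, with 5.45-fold, 4.89-fold and 3.11-fold lower means for Gm8979, Gm8989 and Gvin1 in that order. The log2 fold changes were -2.44, -2.27 and -1.63. In bulk samples, fewer cells of a type and less RNA per cell cannot be told apart.

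Gm4070, which shares nearly all of its sequence with Gvin1, had the opposite order. It was at 37.0 and 28.9 FPKM in the Lgr5-WT mice, against 60.7 and 47.1 FPKM in the Lgr5-CREPTKO mice, so that the genotypes did not overlap. Its log2 fold change was 0.70 (95% interval 0.25 to 1.15, adjusted p = 0.0971 by limma). The sum of Gvin1 and Gm4070, which does not depend on how reads were split between these copies apart from their lengths, was 268 and 223 FPKM in the Lgr5-WT mice, against 133 and 112 FPKM in the Lgr5-CREPTKO mice, a 2.01-fold lower mean. The ratio for the sum was thus smaller than the 3.11-fold of Gvin1 alone. The sum of Gm8979 and Gm8989 was 731 and 706 FPKM against 135 and 136 FPKM, a 5.31-fold lower mean. Over all 7 copies the sum was 1169 and 1066 FPKM against 365 and 329 FPKM, a 3.22-fold lower mean.

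The other 3 copies were lower in both Lgr5-CREPTKO mice than in either Lgr5-WT mouse. Gm1966, a copy 93.0% identical to Gvin1, fell from 103 and 85.3 FPKM to 54.8 and 46.7 FPKM. Its log2 fold change was -0.88 (95% interval -1.22 to -0.55, adjusted p = 0.0440 by limma). The adjusted p was below 0.05 in 5 of 12 alternative settings, with a lowest value of 0.0335. The settings without the filter on low values and with a mouse left out called no gene of the table, so they could not check this call. With a mouse left out its log2 fold change ran from -1.02 to -0.75. Gm4759 had a log2 fold change of -0.57 and Gm18853, which lies within the span of Gvin1, one of -0.63, and neither passed the test (adjusted p of 0.118 and 0.102 by limma). Of the 50-base words of Gm1966, 13.1% occurred in another copy, against 98.9% of those of Gvin1. With 100-base words these shares were 0.820% and 97.8%.

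Genes next to the family were also examined. Of 20 genes outside the family that start within 1 Mb of Gvin1, 12 were tested, and 9 had negative and 3 positive log2 fold changes. The 3 that were called, against 2.67% of all genes called in this direction, were all lower in Lgr5-CREPTKO cells. Taf10, a subunit of the general transcription factor TFIID, fell from 76.1 and 85.7 FPKM to 32.1 and 35.9 FPKM (log2 fold change -1.24, 95% interval -1.49 to -0.99, adjusted p = 0.0280 by limma). Mrpl17, a protein of the mitochondrial ribosome, fell from 5.11 and 5.14 FPKM to 1.63 and 1.72 FPKM (log2 fold change -1.37, adjusted p = 0.0301 by limma). Timm10b, a mitochondrial import factor, fell from 19.2 and 20.9 FPKM to 13.1 and 13.8 FPKM (log2 fold change -0.56, adjusted p = 0.0491 by limma). Of the 12 alternative settings, 6, 6 and 3 kept the adjusted p of these genes below 0.05, and the setting without the filter on low values called no gene of the table. With any 1 of the 4 mice left out, limma called 0 of all genes, so these calls could not be checked that way, and the log2 fold changes then ran from -1.33 to -1.16 for Taf10, from -1.40 to -1.34 for Mrpl17 and from -0.62 to -0.50 for Timm10b. Taf10 and Mrpl17 also had an absolute log2 fold change above 1, a stricter rule that 1.01% of all genes passed in this direction and 0.127% in the other. Gm15645, the nearest gene tested outside the family, was at 3.90 and 9.41 FPKM against 1.89 and 3.27 FPKM and was not called (adjusted p = 0.203 by limma). The stretch had no single direction, since Tpp1 and Smpd1 were slightly higher in both Lgr5-CREPTKO mice, with log2 fold changes of 0.13 and 0.21 that did not pass the test.

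**Figure D1:**
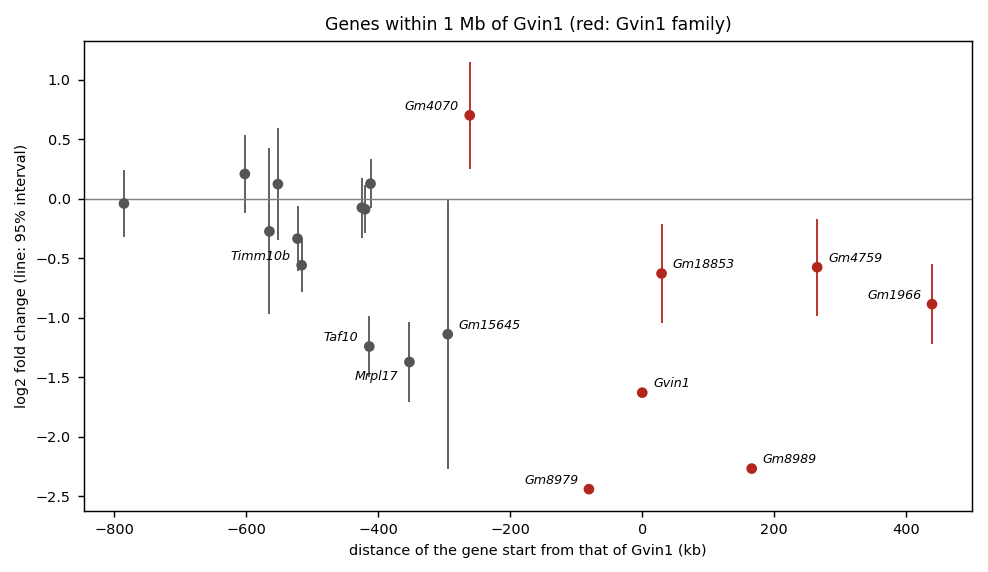
Log2 fold change of Lgr5-CREPTKO over Lgr5-WT for the 19 tested genes that start within 1 Mb of Gvin1, against the distance of the gene start from that of Gvin1 in kb. Lines are 95% intervals from limma and are left out for Gvin1, Gm8979 and Gm8989, which were chosen for this difference. All copies of the family (red) lie below 0 except Gm4070, at 0.70.

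Markers of enteroendocrine and goblet cells, and most of those of tuft cells, were lower in the same mice as the Gvin1 locus, and those of Paneth cells were not. Summed over 7 enteroendocrine markers the level was 170 and 191 FPKM in the Lgr5-WT mice, against 50.6 and 63.8 FPKM in the Lgr5-CREPTKO mice, and all 7 were lower in both Lgr5-CREPTKO mice. Over 6 goblet cell markers the sum was 1336 and 2154 FPKM against 742 and 771 FPKM, and all 6 were lower. The 5 Paneth cell markers summed to 1033 and 770 FPKM against 586 and 1848 FPKM, and all 5 overlapped between genotypes. The 6 tuft cell markers summed to 16.7 and 34.5 FPKM against 15.2 and 6.14 FPKM. In 4 of the 5 tested both Lgr5-CREPTKO mice were below both Lgr5-WT mice. Markers of crypt base stem cells, Lgr5 and Olfm4 among them, summed to 5447 and 5278 FPKM against 5789 and 5620 FPKM. All 5 were higher in both Lgr5-CREPTKO mice than in either Lgr5-WT mouse. By limma 5 of the 7 enteroendocrine and 1 of the 6 goblet cell markers were called, against 3.08% of all genes. Of the tuft, Paneth and crypt base stem cell markers 0 were called. Over all genes, both Lgr5-CREPTKO mice were below both Lgr5-WT mice in 31.0% and above them in 25.6%. None of these markers was at 0 in every mouse. Their part in the values of the Gvin1 locus was not tested.

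Outside the Gvin1 locus no interferon gene was called. Of 37 members, 32 were tested, and 0 had an adjusted p below 0.05 by limma, where 3.08% of all genes did. Among 32 genes, 0 calls is close to that share. At an unadjusted p below 0.05 there were 2, Irf3 and Ifi35, against 24.5% of all genes. The log2 fold changes ran from -0.75 to 0.20 with a median of -0.05, and the median of all genes was -0.01. There were 20 negative and 12 positive values, beside 6605 negative and 6016 positive over all genes. When FPKM was rescaled to TPM, which gives every library the same total, 15 were negative and 17 positive. That rescaling moved the median of all genes to 0.054. The median of the 35 members outside the locus that passed the filter on TPM was -0.004. In 6 members both Lgr5-CREPTKO mice were below both Lgr5-WT mice, and in 0 were both above, against 31.0% and 25.6% of all genes. These 6 were Ifnar1, Irf3, Irf7, Ifi35, Isg20 and Samd9l. The median moved from -0.05 to -0.34 without Lgr5-CREPTKO mouse 2, when 30 of the 32 were negative, and to 0.11 without Lgr5-CREPTKO mouse 1, when 11 of the 32 were negative.

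**Figure D2:**
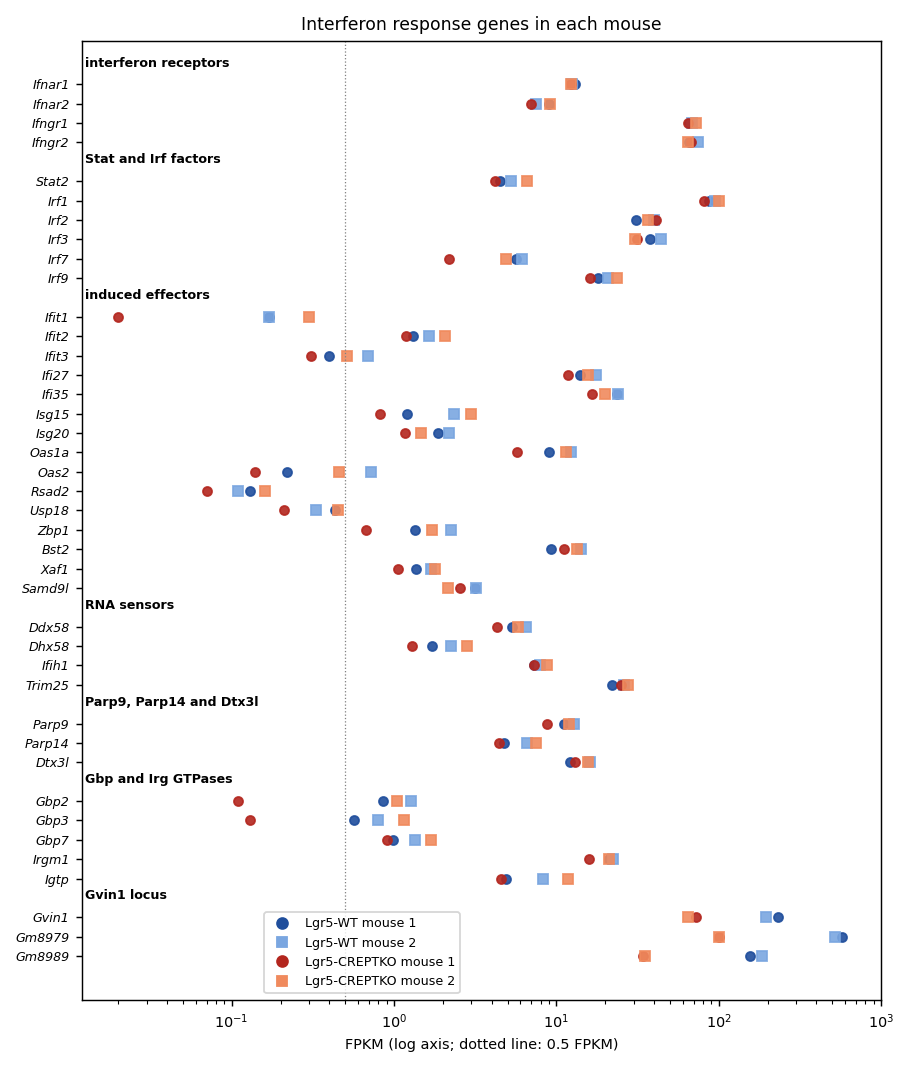
FPKM on a log axis of the 40 interferon genes in each of the 4 mice, grouped by role, with circles for mouse 1 and squares for mouse 2 of each genotype. The Lgr5-CREPTKO mice (red and orange) are separated from the Lgr5-WT mice (blue) in the Gvin1 locus, while Lgr5-CREPTKO mouse 1 is the lowest of the 4 mice in all 5 Gbp and Irg GTPases.

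The interferon receptors differed little between genotypes. The chains of the type II receptor were the more abundant, with Ifngr1 at 66.4 and 68.8 FPKM in the Lgr5-WT mice, against 64.7 and 72.5 FPKM in the Lgr5-CREPTKO mice. Ifngr2 was at 65.6 and 74.2 FPKM against 67.5 and 64.4 FPKM, and the genotypes overlapped (log2 fold change -0.08, 95% interval -0.31 to 0.14). Of the type I receptor, Ifnar1 was at 13.1 and 12.5 FPKM against 12.3 FPKM in each Lgr5-CREPTKO mouse, and Ifnar2 at 9.02 and 7.50 FPKM against 7.01 and 9.11 FPKM. Ifnar1 did not overlap, at a log2 fold change of -0.06 that was smaller than the median absolute change of all genes, 0.175. Of the interferon ligands looked for, only Ifng and Ifnk were in the table. They were near 0, with Ifng at or below 0.09 FPKM and Ifnk at or below 0.07 FPKM in every mouse. Ifnb1, Ifna2, Ifna4, Ifne, Ifnl2 and Ifnl3 had no values, so their levels are unknown.

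Among the Stat and Irf factors the highest level was that of Irf1, an activator that interferons themselves induce, at 87.6 and 94.8 FPKM in the Lgr5-WT mice, against 80.8 and 101 FPKM in the Lgr5-CREPTKO mice. Its log2 fold change was -0.01. Irf3 and Irf7, which turn on the interferon genes once a sensor has detected foreign nucleic acid, were lower in both Lgr5-CREPTKO mice. Irf3 was at 37.7 and 43.9 FPKM against 31.4 and 30.5 FPKM (log2 fold change -0.39, 95% interval -0.64 to -0.14, adjusted p = 0.0982 by limma). Irf7 was at 5.67 and 6.17 FPKM in the Lgr5-WT mice, against 2.17 and 4.92 FPKM in the Lgr5-CREPTKO mice (log2 fold change -0.75, 95% interval -1.64 to 0.13, adjusted p = 0.257 by limma). The Lgr5-CREPTKO mice thus differed 2.27-fold from each other in Irf7, and neither gene passed the test. Irf2, which mainly represses the same elements, was at 31.0 and 39.7 FPKM against 41.0 and 36.5 FPKM. Stat2 and Irf9, partners in the complex that type I interferon activates, had log2 fold changes of 0.11 and 0.01, with overlapping genotypes.

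In 8 of the 10 induced effectors tested, Lgr5-CREPTKO mouse 1 was the lowest of the 4 mice. Of 15 effectors listed these 10 passed the filter, with a median log2 fold change of -0.28, 8 negative and 2 positive. Ifi35 was the highest of them and was at 23.6 and 23.9 FPKM in the Lgr5-WT mice, against 16.5 and 20.04 FPKM in the Lgr5-CREPTKO mice (log2 fold change -0.38, 95% interval -0.67 to -0.09, adjusted p = 0.133 by limma). Isg20, an exonuclease that degrades viral RNA, was at 1.87 and 2.17 FPKM against 1.17 and 1.47 FPKM (log2 fold change -0.47). Zbp1, a sensor of left-handed nucleic acid, had the largest difference, at 1.35 and 2.24 FPKM against 0.67 and 1.71 FPKM (log2 fold change -0.49, 95% interval -1.47 to 0.50). Ifi35 and Isg20 kept the genotypes apart, and Zbp1 did not. Samd9l, a factor that restricts viruses, was at 3.14 and 3.19 FPKM against 2.54 and 2.15 FPKM and was the only effector tested in which Lgr5-CREPTKO mouse 2 was below mouse 1.

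Isg15 shows the spread most plainly. This ubiquitin-like protein, which is attached to other proteins after interferon, was at 1.20 and 2.33 FPKM in the Lgr5-WT mice, against 0.82 and 2.96 FPKM in the Lgr5-CREPTKO mice. The lowest and the highest value thus came from the same genotype, 3.61-fold apart, and the log2 fold change of -0.04 had a 95% interval from -1.38 to 1.31. Oas1a, a synthetase that activates the degradation of viral RNA, was at 9.03 and 12.3 FPKM against 5.70 and 11.4 FPKM, 2.00-fold apart in the Lgr5-CREPTKO mice. The remaining effectors tested, Ifit2, Ifi27, Bst2 and Xaf1, had log2 fold changes from -0.19 to 0.08 and overlapped between genotypes. Of the untested ones, Ifit1 was at 0.17 FPKM in each Lgr5-WT mouse, against 0.02 and 0.30 FPKM in the Lgr5-CREPTKO mice, and Oas2 was at 0.22 and 0.72 FPKM against 0.14 and 0.46 FPKM.

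Sensors of viral RNA were closer between genotypes. Trim25, a ubiquitin ligase that acts on the sensor Ddx58, had the highest level, at 21.96 and 25.98 FPKM in the Lgr5-WT mice, against 25.1 and 27.7 FPKM in the Lgr5-CREPTKO mice. Ddx58, the sensor RIG-I, was at 5.30 and 6.46 FPKM against 4.31 and 5.82 FPKM (log2 fold change -0.20, adjusted p = 0.539 by limma). Ifih1 and Dhx58, its relatives, had log2 fold changes of 0.06 and -0.01. Parp9 and Dtx3l, which work as a pair, and the ADP-ribosyltransferase Parp14 had log2 fold changes of -0.21, 0.03 and 0.04. Dtx3l was the highest of the 3, at 12.1 and 16.1 FPKM against 12.9 and 15.7 FPKM. In all 7 genes the genotypes overlapped.

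The Gbp and Irg GTPases, which coat the vacuoles of intracellular microbes, had the largest median difference of any role between the Lgr5-CREPTKO mice. Irgm1, a regulator of the Irg family, was the highest, at 20.99 and 22.3 FPKM in the Lgr5-WT mice, against 15.8 and 21 FPKM in the Lgr5-CREPTKO mice (log2 fold change -0.24, adjusted p = 0.384 by limma). Gbp2 was at 0.86 and 1.28 FPKM against 0.11 and 1.04 FPKM, and Gbp3 at 0.57 and 0.80 FPKM against 0.13 and 1.15 FPKM. Igtp was at 4.88 and 8.27 FPKM against 4.57 and 11.8 FPKM. The Lgr5-CREPTKO mice were 9.45-fold apart in Gbp2, 8.85-fold in Gbp3 and 2.58-fold in Igtp, and in each of these genes the genotypes overlapped. The ratios of Gbp2 and Gbp3 divide by 0.11 and 0.13 FPKM, values near the floor. On the log2(FPKM + 0.5) scale these mice differed by 1.34 in Gbp2, 1.39 in Gbp3, 1.28 in Igtp and 0.40 in Irgm1. The log2 fold changes of Gbp2, Gbp3 and Igtp between genotypes were -0.68, -0.21 and 0.20. Each had a 95% interval that held 0, and that for Igtp ran from -1.01 to 1.42. Gbp7, the remaining one, was at 0.98 and 1.34 FPKM against 0.91 and 1.69 FPKM.

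**Figure D3:**
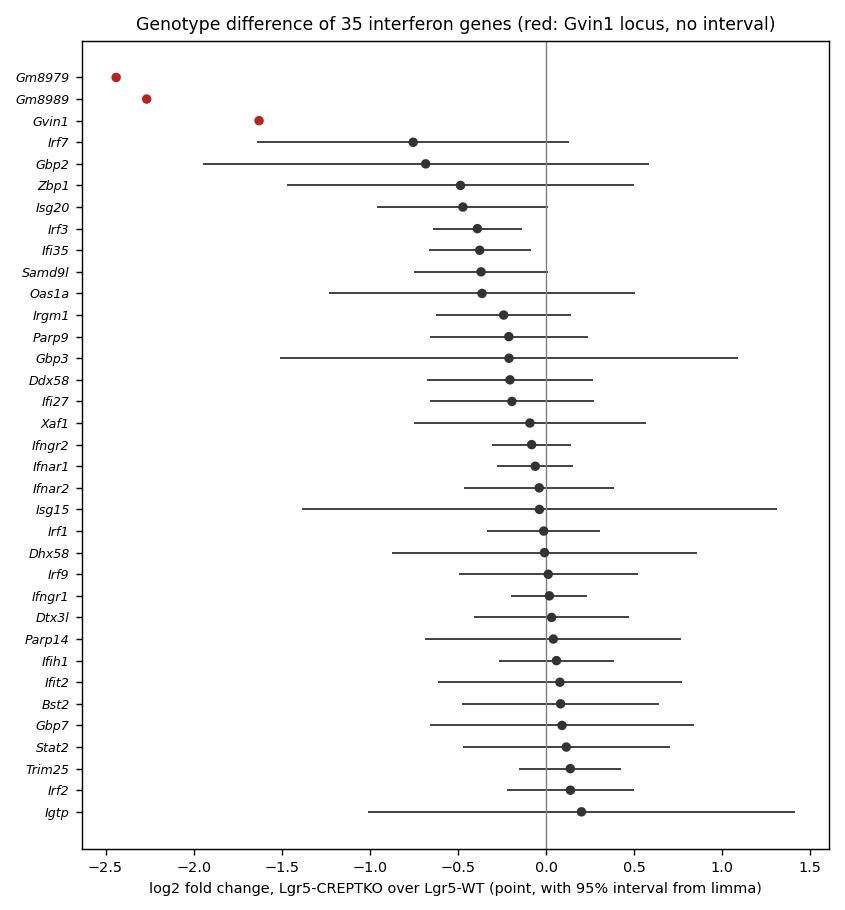
Log2 fold change of Lgr5-CREPTKO over Lgr5-WT on the log2(FPKM + 0.5) scale for the 35 interferon genes that passed the filter, in order of size. Lines are 95% intervals from limma and are left out for the Gvin1 locus (red). The 3 genes of the locus lie between -2.44 and -1.63 and the other 32 between -0.75 and 0.20, and the widest intervals are those of Isg15, Gbp3, Gbp2 and Igtp.

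The differences between mice of one genotype were shared by most induced genes. Over the 22 tested effectors, sensors, Parp genes and GTPases, 21 were higher in Lgr5-CREPTKO mouse 2 than in mouse 1, against 53.4% of all genes, and 22 were higher in Lgr5-WT mouse 2 than in mouse 1, against 49.6%. Lgr5-CREPTKO mouse 1 was the lowest of the 4 mice in 18 of the 22, against 29.3% of all genes, and Lgr5-CREPTKO mouse 2 the highest in 10, against 24.9%. The median difference of mouse 2 over mouse 1 was 0.50 on the log2 scale in the Lgr5-CREPTKO mice and 0.29 in the Lgr5-WT mice. The median absolute log2 fold change between genotypes in these 22 genes was 0.198. Over all genes the median absolute difference between mice was 0.126 in the Lgr5-CREPTKO and 0.128 in the Lgr5-WT mice. A difference above 1 on the log2 scale between the Lgr5-CREPTKO mice occurred in 5 interferon genes, Irf7, Isg15, Gbp2, Gbp3 and Igtp, and in 3.02% of all genes. By role, the median difference between the Lgr5-CREPTKO mice was 0.08 for the receptors, 0.43 for the Stat and Irf factors, 0.48 for the effectors, 0.32 for the sensors and 1.28 for the Gbp and Irg GTPases. Mice with the same number in each genotype are different animals, and whether they share a litter or batch was not given. The Gvin1 locus did not share this order, since Gm8979 was at 101 FPKM and Gm8989 at 34.3 and 35.2 FPKM in the Lgr5-CREPTKO mice.

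Markers of immune cells, and those of enterocytes, ordered the mice in much the same way. Of 21 immune cell markers listed, 20 were in the table, and their summed level was 32.1 and 48.5 FPKM in the Lgr5-WT mice, against 12.7 and 80.7 FPKM in the Lgr5-CREPTKO mice. All 20 were higher in Lgr5-CREPTKO mouse 2 than in mouse 1 and 13 of them in Lgr5-WT mouse 2 than in mouse 1, Lgr5-CREPTKO mouse 1 was the lowest of the 4 mice in 17 and Lgr5-CREPTKO mouse 2 the highest in 17. The highest of them was Gzma, a granzyme of cytotoxic lymphocytes, at 10.3 and 20.98 FPKM against 2.09 and 35.1 FPKM. Cd8a and Itgae, which mark the T cells that lie between epithelial cells, were at 0.94 and 2.00 FPKM against 0.51 and 3.67 FPKM, and at 1.24 and 1.42 FPKM against 0.90 and 2.68 FPKM. Ptprc, the general marker of blood cells, was at 0.40 and 0.77 FPKM against 0.14 and 1.35 FPKM. None of the 20 was at 0 in every mouse, and none was called between genotypes. The 6 enterocyte markers summed to 157 and 248 FPKM in Lgr5-WT cells and to 142 and 299 FPKM in Lgr5-CREPTKO cells, with all 6 higher in mouse 2 of either genotype and 5 of 6 highest in Lgr5-CREPTKO mouse 2. In Paneth cell markers Lgr5-CREPTKO mouse 1 was the lowest in 4 of 5 and Lgr5-CREPTKO mouse 2 the highest in 4 of 5, while 1 of 5 was higher in Lgr5-WT mouse 2 than in mouse 1. The 5 general epithelial markers summed to 2186 and 2059 FPKM against 1972 and 2179 FPKM. Only Krt20 of differentiated cells followed the whole order, at 12.2 and 21.5 FPKM against 7.10 and 23.2 FPKM. Epcam and Cdh1 were lower in Lgr5-CREPTKO mouse 2 than in mouse 1, and Krt8 was lower in Lgr5-WT mouse 2 than in mouse 1. Vil1 was lower in both Lgr5-CREPTKO mice than in either Lgr5-WT mouse. The part of the immune, enterocyte and Paneth cell markers in the mouse-to-mouse differences of the interferon genes was not tested.

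**Figure D4:**
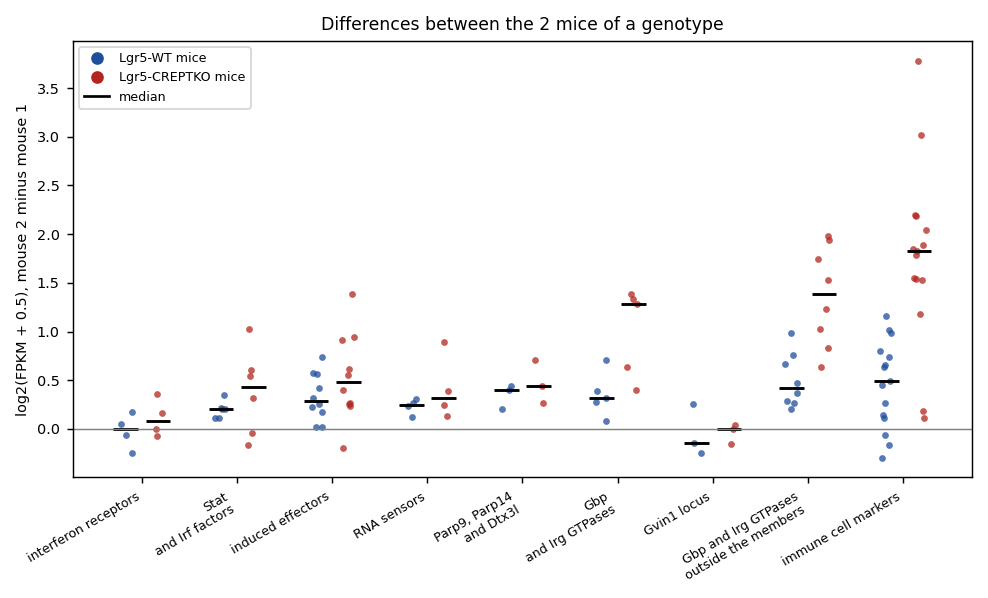
Difference of log2(FPKM + 0.5) between mouse 2 and mouse 1 of the Lgr5-WT (blue) and Lgr5-CREPTKO (red) genotype for each tested gene, by role, with the median as a bar. The Lgr5-CREPTKO medians are 1.28 for the 5 Gbp and Irg GTPases, 1.38 for 8 further GTPases and 1.83 for 15 immune cell markers, and that of the Gvin1 locus is close to 0.

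Further genes of the pathway gave the same picture for the GTPases. Of 98 listed by function, 89 were in the table and 73 were tested, with a median log2 fold change of -0.05. In 14 both Lgr5-CREPTKO mice were below and in 8 both were above the Lgr5-WT mice, against 31.0% and 25.6% of all genes. Of 12 further Gbp and Irg genes 8 were tested, and in all 8 Lgr5-CREPTKO mouse 1 was the lowest and Lgr5-CREPTKO mouse 2 the highest of the 4 mice. Ifi47 was at 17.9 and 20.7 FPKM in the Lgr5-WT mice, against 14.8 and 23.3 FPKM in the Lgr5-CREPTKO mice, and Tgtp2 at 2.54 and 5.53 FPKM against 1.11 and 5.68 FPKM. None of these 8 was called.

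Of the 73 genes, 2 were called lower in Lgr5-CREPTKO cells, a share near the 2.67% of all genes, and 0 were called higher, against 0.412%. They were Gm1966 of the Gvin1 family, described above, and Ticam1. Ticam1, the adaptor TRIF through which the RNA sensor Tlr3 signals, fell from 10.8 and 12.5 FPKM to 4.39 and 5.91 FPKM (log2 fold change -1.11, 95% interval -1.54 to -0.68, adjusted p = 0.0460 by limma). Its adjusted p was below 0.05 in 5 of the 12 alternative settings, with a lowest value of 0.0338. No gene of the table was called without the filter on low values or with a mouse left out. With a mouse left out the log2 fold change of Ticam1 ran from -1.31 to -0.92. Uba7, the enzyme that activates Isg15 for attachment, was at 8.67 and 8.61 FPKM against 2.98 and 5.09 FPKM (log2 fold change -1.05, adjusted p = 0.0846 by limma). Tmem173, the adaptor STING of the DNA sensing pathway, was at 3.27 and 4.67 FPKM against 2.04 and 2.09 FPKM (log2 fold change -0.78, adjusted p = 0.0979 by limma). Of the 8 sensors and adaptors tested, 7 had negative log2 fold changes, with a median of -0.29, and in 5 both Lgr5-CREPTKO mice were below the Lgr5-WT mice, against 31.0% of all genes. These 5 were Ticam1, Tmem173, Ikbke, Mavs and Tbk1, and only Ticam1 was called.

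Promoters of the induced genes were searched for the short elements to which Stat and Irf factors are known to bind. The promoter sequences were those of RefSeq on GRCm38.p6, from 250 bases before to 50 after each gene start, and 30 of the 40 genes had one. None of the 3 genes of the Gvin1 locus did. The core of the interferon-stimulated response element bound by Irf factors, written as GAAA, any 2 bases and GAAA again, was searched on both strands. It occurred in 15 of the 30, against 357 of 9902 tested genes with a promoter (3.61%). Unlike the 9902, the 30 include genes that were not tested, and of these Ifit1, Ifit3 and Rsad2 had a match. The element occurred in 13 of 20 induced genes, in 5 of 5 Gbp and Irg GTPases, in 2 of 6 Stat and Irf factors and in 0 of 4 receptors. TTCNNNGAA, the element bound by Stat dimers, which reads the same on both strands, occurred in 11 of the 30, against 8.53% of the promoters of tested genes. A match describes the letters in this window and not a site in use.

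The matches in the 5 Gbp and Irg GTPases, whose Lgr5-CREPTKO mice differed most by role, and in Isg15 and Oas1a are shown here in windows of 30 bases, with the matched letters in capitals and overlapping matches joined. They are written 5′ to 3′ on the strand of the gene, so TTTC repeats are matches on the opposite strand. The windows of Gbp2 at chr3:142620594-142620623, Gbp3 at chr3:142559992-142560021, Gbp7 at chr3:142530273-142530302 and Igtp at chr11:58199512-58199541 are on the plus strand. The windows of Irgm1 at chr11:48871428-48871457, Isg15 at chr4:156200871-156200900 and Oas1a at chr5:120907526-120907555 are on the minus strand.
Gbp2: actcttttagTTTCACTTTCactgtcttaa
Gbp3: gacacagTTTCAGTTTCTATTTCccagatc
Gbp7: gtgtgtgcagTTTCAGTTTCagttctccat
Igtp: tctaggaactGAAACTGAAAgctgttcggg
Irgm1: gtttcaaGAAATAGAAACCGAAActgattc
Isg15: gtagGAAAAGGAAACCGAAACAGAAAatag
Oas1a: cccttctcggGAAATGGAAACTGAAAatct
Isg15 held 3 overlapping matches, Gbp3, Irgm1 and Oas1a held 2 each, and Gbp2, Gbp7 and Igtp held 1 each.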

How the data were processed

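The authors deposited 1 table of FPKM values, rounded to 2 decimals, with 1 column per mouse. Per the study's methods, reads from a BGISEQ instrument were mapped with Bowtie2 to reference transcripts of GRCm38.p6 and quantified with RSEM. The submitters' processing notes also name HISAT and mm10, and versions were not given. The methods name the sorted cells as the source for RNA-seq, while their paragraph on RNA-seq names crypts and intestines only. The table holds no counts, so a count model could not be used. Values were taken as log2(FPKM + 0.5), 12621 of 18436 genes averaging 0.5 FPKM or more were kept, and limma 3.58.1 (lmFit and eBayes with an intensity trend, R 4.3.3) was run with Benjamini-Hochberg adjustment over all of them. Columns were matched to mice by title. Same-numbered mice are different animals, and whether they share a litter or batch was not given. Over all genes tested, the difference of mouse 2 over mouse 1 correlated at -0.0266 between genotypes, which does not settle this.

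The members and the lists of pathway genes, roles and markers were chosen with earlier results of these data known. Named are the Gvin1 locus, in each role the most abundant gene and the 2 with the largest absolute log2 fold change, members whose mice of one genotype differ by more than 1 (log2), and, of pathway genes and neighbours, those called and at most 5 with the largest change. Genes named besides these (Ifnar1, Ifi35, Samd9l, Oas1a, Gm4759, Gm18853, Tpp1, Smpd1, the sensors and adaptors whose genotypes did not overlap, and examples of low ligands and GTPases) were chosen after their values were seen. RefSeq matched 18333 symbols. The copies of Gvin1 were aligned with Biopython 1.88. The script was tested on simulated data. The pseudocount, filter, scaling, trend, block and each mouse left out were varied.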

Additional observations from a re-analysis of the deposited data

How the results depend on the processing

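With 2 mice per genotype calls rest on the variance limma shares across genes. Of the pathway genes, 2 were lower, and 0 without the filter on low values, 0 with TPM and 0 without the intensity trend. Leaving out each mouse gave 0 to 0. Of the neighbours of Gvin1 including the family, 7 were called lower, and 0 without the filter and 1 without the trend. Without the trend limma called only 4 of all 12621 genes, so the low counts in that setting say little about these genes. Counts of neighbours in this paragraph cover Gvin1, Gm8979 and Gm8989, which were chosen for this difference, so they are no test of the locus. Outside the family 3 were called lower. With the replicate number as a block, 1 pathway gene and 1 neighbour were higher, in both cases Gm4070 (adjusted p = 0.0433 by limma), and 6 neighbours and 2 pathway genes were lower. The numbers mark different animals, and whether they also mark a shared litter or batch is not known. With each mouse left out the median log2 fold change of the Gvin1 locus ran from -2.37 to -2.14, and that of the other members from -0.34 without Lgr5-CREPTKO mouse 2 to 0.11 without Lgr5-CREPTKO mouse 1. Without the filter no gene of 18436 was called (smallest adjusted p = 0.105 by limma), where more low genes enter the fit and the adjustment. With any 1 mouse left out limma also called no gene of the table (smallest adjusted p from 0.123 to 0.295), so these settings and the one without the filter say nothing about the stability of a call. The members outside the locus had 0 calls in the other settings too.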
